A study of Mus musculus with 9 samples.

Results

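The mRNA of p53 and of 7 genes that restrain it or are switched on by it was followed in MyC-CaP cells, a mouse prostate cancer line, after treatment with asporin (ASPN), a protein secreted by fibroblasts of the tumor stroma. The genes were chosen by name and are Trp53, Mdm2, Mdm4, Ccng1, Zmat3, Phlda3, Trp53inp1 and Btg2, which are 8 of the 15384 genes with counts. Each name matched 1 gene of the table, and all 8 passed the filter on low counts in each of the 3 comparisons. p53 is a transcription factor that cells hold at a low protein level through MDM2, a ubiquitin ligase that marks p53 for degradation, and MDM4, a relative of MDM2 that binds p53 and blocks its transactivation domain. DNA damage and other stresses release p53 from both, mostly by changing the protein and not its mRNA, and p53 then induces genes of cell cycle arrest, death, DNA repair and metabolism, among them its own inhibitor Mdm2. RNA counts show the transcripts only, and p53 protein was not measured in these libraries.

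MyC-CaP cells come from a prostate carcinoma of a mouse with a Myc transgene and are androgen responsive. They were held for 6 to 12 h in medium free of serum and calcium and then given 100 ng/mL recombinant mouse ASPN, and RNA was taken at 0, 12 and 24 h, with 3 libraries at each time. By their labels, the time 0 libraries had ASPN too. Libraries of cells kept for 12 or 24 h without ASPN were not analysed here, so ASPN and the hours in culture cannot be told apart in any comparison. The cells were plated in triplicate, from a single line, and p-values measure the spread between these libraries. A change in every cell and a change in the share of cells that express a gene cannot be told apart either, since each library is a bulk sample.

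The libraries held 43654461 to 51356250 counts at time 0, 41881191 to 44766173 at 12 h and 44779129 to 52993821 at 24 h. Levels are given as CPM, counts scaled to a common library size with TMM factors over the 9 libraries, and 3 counts correspond to 0.0566 to 0.0716 CPM. Of 6 epithelial markers, Krt8, Krt19 and Cldn4 had more than 3 counts in every library while Krt18, Epcam and Cdh1 did not, and 3 of 4 markers of an androgen-responsive prostate line exceeded that level in every library. The summed CPM of the epithelial list was 108 to 137 at time 0, 127 to 133 at 12 h and 167 to 194 at 24 h. That of the prostate line list was 3298 to 3501, 3158 to 3204 and 1966 to 2072, and that of 8 fibroblast markers, of which Pdgfra and Dcn alone exceeded 3 counts throughout, was 12.9 to 14.1, 12.2 to 12.5 and 9.12 to 10.3. Endothelial and leukocyte lists summed to at most 0.793 CPM in each library. The 24 h libraries differed from each other with transcript GC content. Their deviations from the group mean had Spearman correlations with it of -0.31, 0.27 and 0.07 for replicates 1, 2 and 3 over 11444 genes. Replicates 1 and 2 thus lay on opposite sides. Fits with offsets for the length and GC content of transcripts moved some of the 24 h values, as given below. What part of those values comes from these shifts was not tested.

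Per kilobase of annotated exon, joined over all annotated transcripts of a gene, Btg2 had the highest value of the 8 genes at time 0 (30.0 ± 0.888 CPM per kb, SD, n = 3). It was followed by Trp53 (18.7 ± 0.136), Ccng1 (17.8 ± 0.403), Mdm2 (10.3 ± 0.267), Phlda3 (8.67 ± 0.469), Trp53inp1 (4.496 ± 0.441), Zmat3 (2.84 ± 0.114) and Mdm4 (2.10 ± 0.350). No neighbours in this order overlapped between libraries at time 0, and the order was the same at 12 h, again without overlap. At 24 h, Ccng1 (25.6 ± 1.13 CPM per kb) stood above Trp53 (23.0 ± 0.448), and Mdm4 (3.51 ± 0.815) stood above Trp53inp1 (1.51 ± 0.111) and Zmat3 (1.45 ± 0.144). The libraries of Trp53inp1 and Zmat3 overlapped at 24 h and had no order. The joined lengths, such as 4045 bases for Trp53 and 14798 for Mdm4, can exceed those of the transcripts present. The order between genes therefore depends on the annotation and may differ from that of the transcripts.

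**Figure D1:**
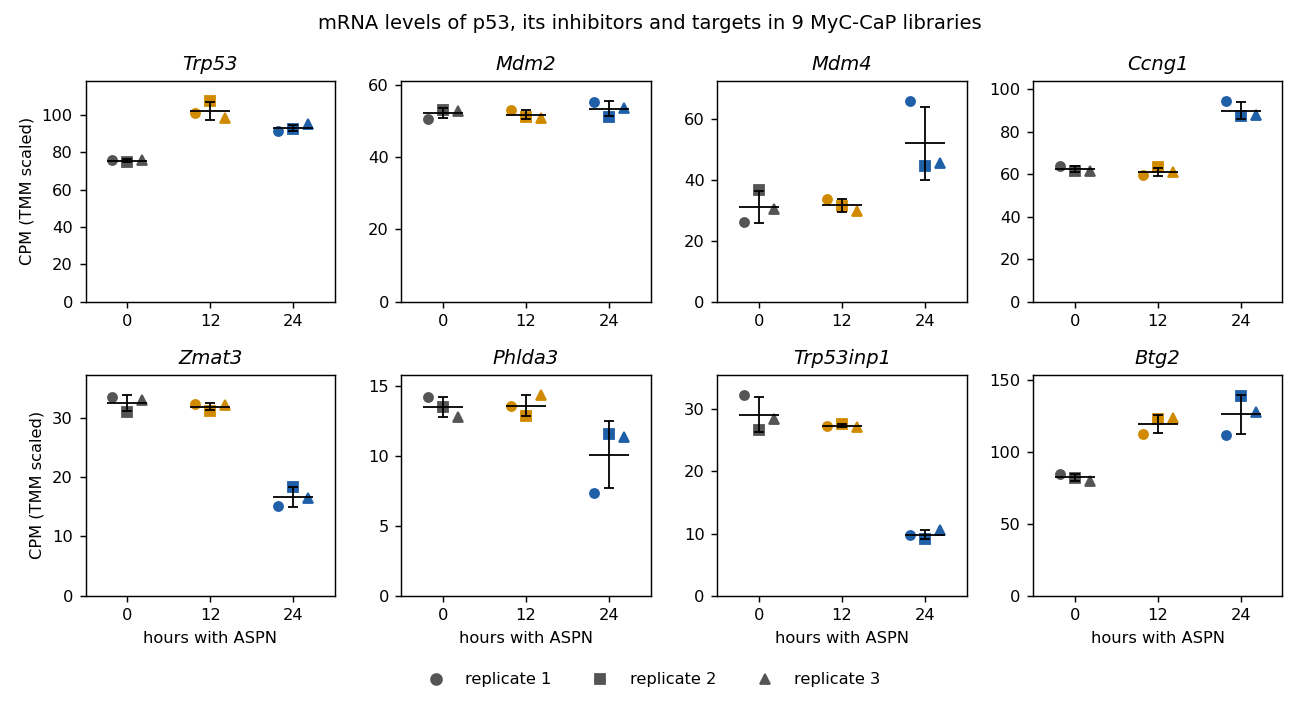
Levels of the 8 genes in each library, as TMM-scaled CPM (y axis, from 0) against hours with ASPN (x axis). Symbols are the 3 libraries of a time, and the line and bars are their mean and SD. Trp53 and Btg2 lie higher at 12 and at 24 h than at time 0, Mdm2 overlaps between the times, Mdm4 and Ccng1 are higher at 24 h than at the other times, and Zmat3, Phlda3 and Trp53inp1 lie lower at 24 h.

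The promoters of 6 of the 8 genes were matched in RefSeq (GRCm38.p6) as windows of 300 bases, 250 before and 50 after the annotated start, with 7 windows in all since Mdm4 has a pair. Zmat3 and Trp53inp1 were not matched. Each window was searched on both strands for the p53 half-site, the NF-kB site and the cAMP response element TGACGTCA, which were present in 8.36%, 4.51% and 1.79% of all 32851 mouse windows. The 4 windows with a match are shown, 5′ to 3′ on the strand of the gene, since they include the promoters of Trp53 and Btg2, which were higher at 12 h, and of Mdm2, which did not pass the test at any time. Capitals mark the matches.
Trp53, chr11:69580109-69580408, plus strand: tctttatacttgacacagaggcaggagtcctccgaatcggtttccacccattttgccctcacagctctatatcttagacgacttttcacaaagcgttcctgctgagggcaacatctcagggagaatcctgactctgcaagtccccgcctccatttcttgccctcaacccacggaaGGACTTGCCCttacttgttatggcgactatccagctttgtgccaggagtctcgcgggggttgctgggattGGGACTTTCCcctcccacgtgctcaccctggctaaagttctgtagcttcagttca
Mdm2, chr10:117710709-117711008, minus strand: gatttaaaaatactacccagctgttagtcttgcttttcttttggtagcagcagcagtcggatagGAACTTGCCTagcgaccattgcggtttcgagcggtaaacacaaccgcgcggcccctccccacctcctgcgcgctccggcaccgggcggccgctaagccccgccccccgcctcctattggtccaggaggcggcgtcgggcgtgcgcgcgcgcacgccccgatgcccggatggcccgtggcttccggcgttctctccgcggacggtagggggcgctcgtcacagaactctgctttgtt
Ccng1, chr11:40755237-40755536, minus strand: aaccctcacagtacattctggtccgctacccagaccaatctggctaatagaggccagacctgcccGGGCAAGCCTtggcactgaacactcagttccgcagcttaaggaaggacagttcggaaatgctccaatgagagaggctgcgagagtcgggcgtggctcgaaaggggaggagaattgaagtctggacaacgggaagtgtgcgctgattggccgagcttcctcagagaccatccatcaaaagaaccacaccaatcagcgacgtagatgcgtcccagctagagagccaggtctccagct
Btg2, chr1:134079106-134079405, minus strand: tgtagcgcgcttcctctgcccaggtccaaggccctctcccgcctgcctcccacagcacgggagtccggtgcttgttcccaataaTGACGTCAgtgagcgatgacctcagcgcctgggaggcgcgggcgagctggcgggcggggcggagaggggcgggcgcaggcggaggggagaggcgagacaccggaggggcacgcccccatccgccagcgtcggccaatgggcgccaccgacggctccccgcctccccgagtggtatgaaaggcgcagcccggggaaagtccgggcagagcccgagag
In Trp53 the p53 half-site GGACTTGCCC lay at -75 to -66 from the start and the NF-kB site GGGACTTTCC at -5 to 5, without overlap. Mdm2 held GAACTTGCCT at -186 to -177 and Ccng1 held GGGCAAGCCT at -185 to -176, both p53 half-sites. Btg2 held the cAMP response element at -166 to -159. The windows of Mdm4 and Phlda3 held none of these letters. Only exact matches were marked, so half-sites with a mismatch are not shown, even where they adjoin a marked one. A match describes the sequence and is not a measure of binding, and p53 sites in introns lie outside these windows.

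The comparisons with time 0 ask which transcripts differ after 12 and 24 h with ASPN. At 12 h, Trp53 and Btg2 were higher, and none of the other 6 genes passed the test. At 24 h the 8 genes had moved in both directions. Mdm4 and Btg2 rose, Zmat3 and Trp53inp1 fell, Trp53 and Ccng1 were higher and Phlda3 lower by less than 1.5-fold, and Mdm2 had not passed the test.

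A gene was called when its Benjamini-Hochberg adjusted p in edgeR's quasi-likelihood test (the edgeR test), taken over all genes tested, was 0.05 or less and it differed by at least 1.5-fold. Folds are those fitted to the 6 libraries of a comparison and can differ slightly from the ratio of the mean CPM. Of the 8 genes, 0 were called at 12 h, against 1.5% of 11410 tested genes called higher and 0.0964% called lower. DESeq2 also called 0, and 2 of the 8 had an unadjusted p under 0.05 in the edgeR test, against 21.4% of all genes. The same 2, Trp53 and Btg2, had an adjusted p of 0.05 or less, against 10.3% of all genes, and lay above time 0 in every library, against 13.7% of all genes that did so. None lay below time 0 in every library, against 13.4% of all genes. Their median log2 fold change was 0.00.

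At 24 h against time 0, 2 of the 8 were called higher, where 12% of 11444 tested genes were, and 2 were called lower, where 16.8% were. By the adjusted p alone 7 passed, against 70.9% of all genes. The libraries of the 2 times did not overlap for 4 genes that were higher (35.9% of all genes) and 3 that were lower (38%). The median log2 fold change was 0.17 over the 8 genes and -0.02 over all genes. At 24 h against 12 h, 1 was called higher (10.4% of 11394 tested genes) and 2 lower (15.3%), 6 passed by the adjusted p alone (71.3%), and 2 higher and 4 lower genes did not overlap (35.8% and 38.1%). These are small counts out of 8 genes, and nothing particular to the group is read from them. The comparisons share libraries in pairs and are not independent of each other. Scaled by total counts in place of TMM factors, which moved the median of all genes at 24 h against time 0 to -0.24, 0 of the 8 were called higher and 3 lower. On that scale 3706 of all genes were called in either direction, against 3298 with TMM factors.

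**Figure D2:**
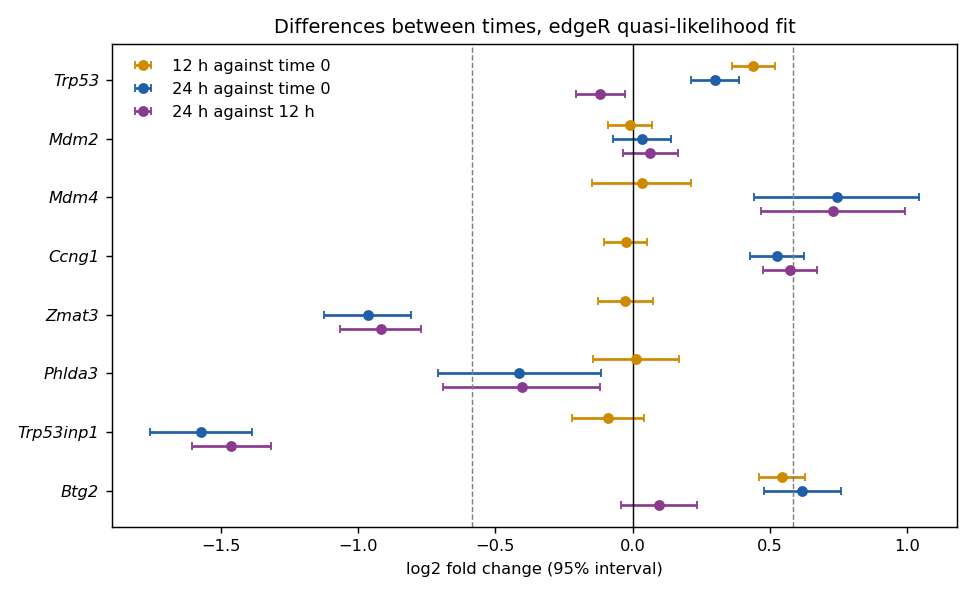
Log2 fold change of the 8 genes (x axis) in each of the 3 comparisons, with 95% intervals from the edgeR fit. Dashed lines mark 1.5-fold. The intervals of Mdm2 include 0 in all 3 comparisons. Those of Zmat3 and Trp53inp1 lie wholly below the lower dashed line at 24 h. At 24 h against time 0, the intervals of Mdm4, Btg2 and Ccng1 cross the upper line and that of Phlda3 crosses the lower one.

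Trp53 (chr11:69580359-69591873, plus strand) encodes p53 itself, with positions given here in GRCm38. Its levels were 75.9, 74.9 and 75.8 CPM at time 0, 101, 107 and 98.3 CPM at 12 h and 91.5, 92.6 and 95.03 CPM at 24 h. All 12 h libraries were the highest, those of 24 h lay between and those of time 0 were the lowest, with no overlap between any 2 times. The mean went from 75.6 ± 0.551 CPM (SD, n = 3) at time 0 to 102 ± 4.69 at 12 h, 1.36-fold higher (edgeR test, log2 fold change 0.44, SE 0.04, adjusted p = 2.5e-07). At 24 h the mean was 93.1 ± 1.81 CPM, 1.23-fold higher than at time 0 (edgeR test, log2 fold change 0.30, SE 0.04, adjusted p = 1.7e-05) and slightly below 12 h (edgeR test, log2 fold change -0.12, SE 0.04, adjusted p = 0.021). None of these differences reached 1.5-fold. The 24 h value depended on the scaling. With total counts its log2 fold change against time 0 was 0.08 (edgeR test, adjusted p = 0.095). With offsets for the length and GC content of transcripts it was 0.43 (edgeR test, adjusted p = 7.8e-08), and the difference between 24 h and 12 h was 0.01. On this last difference the settings disagreed, since it was -0.34 with total counts (edgeR test, adjusted p = 5.5e-06), and its adjusted p was 0.059 with upper-quartile factors and 0.13 without replicate 2 of 12 h in the edgeR test.

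The transcripts whose log2 CPM followed Trp53 most closely over the 9 libraries, among 10356 genes, were Elf3 (Pearson r = 0.991), Edn1 (0.988) and Tnfaip3 (0.985). For Mdm2 they were Wdr74 (0.947), Osbpl1a (0.923) and Nol10 (0.917). These values describe likeness over libraries that fall into 3 times and carry no test. The p53 relatives Trp63 and Trp73, transcription factors of the same family, were at or near the floor, with 0 to 13 and 0 to 8 counts in a library.

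Mdm2 (chr10:117688875-117710758, minus strand) encodes the ligase that degrades p53 and is itself a classical p53 target. Its levels were 50.6, 53.04 and 52.8 CPM at time 0, 53.1, 51.0 and 51.0 CPM at 12 h and 55.4, 51.1 and 53.7 CPM at 24 h. The libraries of the 3 times overlapped throughout. The differences were small with narrow intervals, at 12 h (edgeR test, log2 fold change -0.01, 95% interval -0.09 to 0.07, adjusted p = 0.93), at 24 h against time 0 (edgeR test, log2 fold change 0.03, 95% interval -0.07 to 0.14, adjusted p = 0.55) and at 24 h against 12 h (edgeR test, log2 fold change 0.06, 95% interval -0.04 to 0.16, adjusted p = 0.23). With total counts the 24 h value turned to -0.19 against time 0 (edgeR test, adjusted p = 0.0053) and to -0.16 against 12 h (edgeR test, adjusted p = 0.0076), while the median of all genes stood at -0.24 and -0.22 on that scale.

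Mdm4 (chr1:132959484-133030561, minus strand) encodes the partner of MDM2 that blocks p53 without degrading it. Its levels were 26.2, 36.5 and 30.3 CPM at time 0, 33.8, 31.5 and 29.7 CPM at 12 h and 65.9, 44.5 and 45.6 CPM at 24 h. The 24 h libraries were all above the others, and replicate 1 of 24 h was the highest by a wide margin. The mean of 52.0 ± 12.1 CPM at 24 h lay above both, by a fitted 1.67-fold against time 0 (edgeR test, log2 fold change 0.74, SE 0.14, adjusted p = 0.00031) and 1.66-fold against 12 h (edgeR test, log2 fold change 0.73, SE 0.12, adjusted p = 0.00011). At 12 h it did not differ from time 0 beyond the spread of its libraries (edgeR test, log2 fold change 0.03, 95% interval -0.15 to 0.21, adjusted p = 0.87). Without replicate 1 of 24 h, the log2 fold change was 0.54 against time 0 and 0.53 against 12 h, below 1.5-fold, with adjusted p values of 0.00019 and 1.8e-07 in the edgeR test. With total counts it was 0.52 and 0.51, also below 1.5-fold. With offsets for length and GC content it was 0.76 against time 0. An annotated pseudogene of Mdm4, and 1 of Trp53, could share reads with their parent genes, while none of the 8 genes shares exonic bases with another gene.

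Among the targets, Btg2 and Ccng1 were higher at 24 h. Btg2 (chr1:134075170-134079120, minus strand) encodes an antiproliferative protein that is induced by p53 and also as an early response to growth factors. Its levels were 85.0, 81.9 and 80.2 CPM at time 0, 113, 123 and 124 CPM at 12 h and 112, 139 and 128 CPM at 24 h. Every library of 12 and 24 h lay above time 0, and those of 12 and 24 h overlapped. At 12 h Btg2 was 1.46-fold higher (edgeR test, log2 fold change 0.54, SE 0.04, adjusted p = 5.0e-08), just short of the fold threshold. By 24 h it had risen 1.53-fold (edgeR test, log2 fold change 0.62, SE 0.06, adjusted p = 1.6e-06), with no difference from 12 h that passed the test (edgeR test, log2 fold change 0.10, 95% interval -0.04 to 0.23, adjusted p = 0.2). Without replicate 1 of 24 h, that last value was 0.17 (edgeR test, adjusted p = 0.003). The call against time 0 rested on a value close to 1.5-fold, since it was 0.54 without replicate 2 of 24 h, 0.56 with offsets for length and GC content and 0.40 with total counts, below the threshold in each.

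Ccng1 (chr11:40748552-40755311, minus strand) encodes cyclin G1, which recruits a phosphatase to MDM2 and is a robust p53 target. Its levels were 64.1, 61.7 and 61.6 CPM at time 0, 59.4, 63.3 and 60.9 CPM at 12 h and 94.5, 87.6 and 87.7 CPM at 24 h. Time 0 and 12 h overlapped (edgeR test, log2 fold change -0.03, 95% interval -0.11 to 0.05, adjusted p = 0.76), and all 24 h libraries were higher than both. The 24 h mean of 89.9 ± 3.96 CPM lay above both, by a fitted 1.44-fold against time 0 (edgeR test, log2 fold change 0.53, SE 0.05, adjusted p = 2.7e-07) and 1.49-fold against 12 h (edgeR test, log2 fold change 0.57, SE 0.04, adjusted p = 9.7e-08), both just under the fold threshold. With total counts the values were smaller, 0.30 against time 0 and 0.35 against 12 h, and with offsets for length and GC content they were 0.43 and 0.49. With upper-quartile factors the difference from 12 h was 0.60, past it, and it was also past it without replicate 2 of 12 h (0.60), replicate 2 of 24 h (0.59) or replicate 3 of 24 h (0.59).

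Zmat3, Trp53inp1 and Phlda3 were lower at 24 h. Zmat3 (chr3:32334792-32366014, minus strand) encodes a zinc finger protein that binds RNA and acts in p53-dependent growth control. Its levels were 33.4, 31.0 and 33.0 CPM at time 0, 32.3, 31.1 and 32.1 CPM at 12 h and 15.1, 18.4 and 16.4 CPM at 24 h. The 24 h libraries were all far below the rest. Zmat3 fell 1.95-fold from time 0 to 24 h (edgeR test, log2 fold change -0.96, SE 0.07, adjusted p = 7.0e-08) and 1.89-fold from 12 h to 24 h (edgeR test, log2 fold change -0.92, SE 0.07, adjusted p = 5.9e-08), after no detectable difference at 12 h (edgeR test, log2 fold change -0.03, 95% interval -0.13 to 0.07, adjusted p = 0.81).

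Trp53inp1 (chr4:11156431-11174379, plus strand) encodes a stress-induced nuclear protein that promotes p53 phosphorylation and takes part in autophagy. Its levels were 32.3, 26.7 and 28.4 CPM at time 0, 27.3, 27.6 and 27.1 CPM at 12 h and 9.81, 9.06 and 10.5 CPM at 24 h. It had the largest difference of the 8 genes. The mean went from 29.1 ± 2.85 to 9.79 ± 0.719 CPM, a 2.97-fold fall at 24 h (edgeR test, log2 fold change -1.57, SE 0.09, adjusted p = 3.0e-09), and a fitted 2.75-fold fall from 12 h (edgeR test, log2 fold change -1.46, SE 0.07, adjusted p = 6.4e-10). At 12 h the value was within the spread of the libraries (edgeR test, log2 fold change -0.09, 95% interval -0.22 to 0.04, adjusted p = 0.46). Zmat3 and Trp53inp1 were called lower at 24 h under all 12 alternatives and with any 1 library left out.

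Phlda3 (chr1:135766119-135769136, plus strand) encodes a small pleckstrin homology domain protein that competes with AKT for membrane lipids and so restrains AKT signaling. Its levels were 14.2, 13.5 and 12.8 CPM at time 0, 13.6, 12.9 and 14.4 CPM at 12 h and 7.35, 11.6 and 11.4 CPM at 24 h. Replicate 1 of 24 h was the lowest, and the other 24 h libraries lay just under the earlier ones. Phlda3 was 1.33-fold lower at 24 h than at time 0 (edgeR test, log2 fold change -0.41, SE 0.14, adjusted p = 0.016) and 1.32-fold lower than at 12 h (edgeR test, log2 fold change -0.40, SE 0.13, adjusted p = 0.015), without reaching 1.5-fold. With total counts it was called lower in both, at -0.64 and -0.63 (edgeR test, adjusted p = 0.0011 and 0.00087). Without replicate 1 of 24 h the log2 fold change was -0.23 against time 0 and -0.23 against 12 h. Without replicate 1 of time 0 its adjusted p was 0.061 in the edgeR test, and without replicate 3 of 12 h that of the later comparison was 0.058. At 12 h Phlda3 did not pass the test (edgeR test, log2 fold change 0.01, 95% interval -0.14 to 0.17, adjusted p = 0.95). Mdm4, Btg2 and Phlda3 lie within 2.81 Mb of each other on chromosome 1, and their 24 h values differed in direction.

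**Figure D3:**
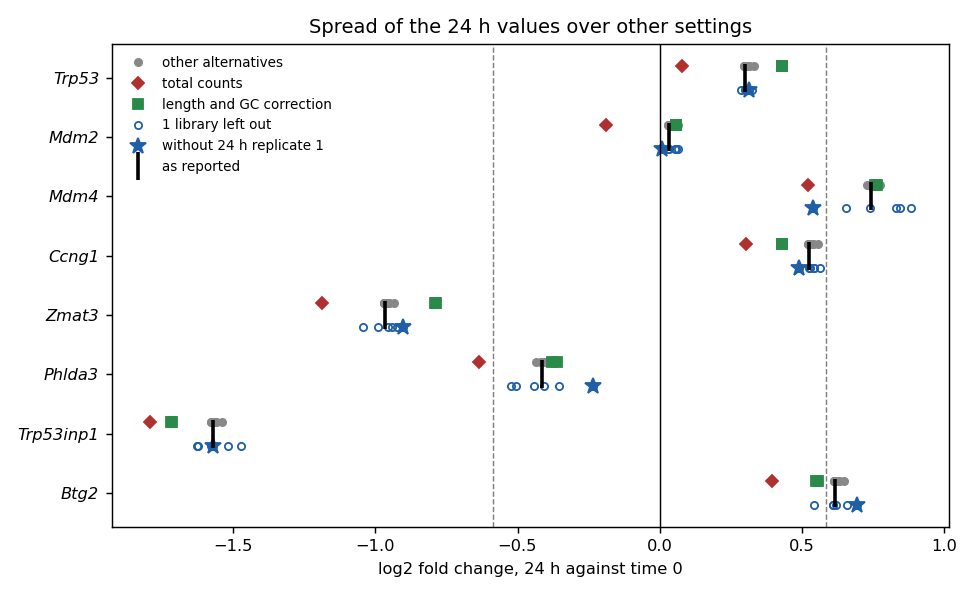
Log2 fold change of the 8 genes at 24 h against time 0 (x axis) as reported (black bars), under other settings (upper points of each row) and with 1 library left out (lower points). Dashed lines mark 1.5-fold. Total counts shift all 8 genes to the left, and leaving out replicate 1 of 24 h brings Mdm4 to 0.54 and Phlda3 to -0.23.

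Other genes of the pathway were taken from lists of p53 regulators and cofactors (25 genes), other p53 targets (46 genes) and relatives of p53 and of the 8 genes (14 genes). Phlda2, Zmat4, Plk2, Ptprv and Thbs1 of these lists were not analysed here. At 12 h, 0 of 25 regulators were called by the edgeR test and by DESeq2, with 7 at an unadjusted p under 0.05 and 3 at an adjusted p of 0.05 or less, beside 21.4% and 10.3% of all genes. Of 42 other targets tested, 2 were called higher, or 1 with at least 10 counts required in every library, and 0 lower, and of 10 relatives 1 was called higher, beside 1.5% of all genes called higher and 0.0964% called lower. The median log2 fold changes were 0.03 over the regulators, -0.00 over the other targets and -0.00 over all genes.

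Bid, whose protein links death receptors to mitochondria, rose from 18.4 ± 1.16 to 36.6 ± 5.05 CPM at 12 h (edgeR test, log2 fold change 1.00, SE 0.08, adjusted p = 1.2e-07). By 24 h it had fallen to 22.3 ± 1.19 CPM (edgeR test against 12 h, log2 fold change -0.70, SE 0.08, adjusted p = 6.3e-06). Its 24 h libraries, at 21.1 CPM or more, still lay above those of time 0, at 19.5 CPM or less. The fall of Bid was -0.58 on the log2 scale, short of 1.5-fold, without replicate 2 of 12 h, and the rise of Phlda1 was 0.58 without replicate 3 of 12 h. Exons of Bid overlap those of Bcl2l13, and exons of Phlda1 those of Gm28592, on the other strand. The death receptor gene Fas was the other called target, with 0 to 5 counts in a time 0 library and 12 to 22 at 12 h, and was named after its values were seen. It passed the filter on low counts through its 12 h libraries alone, so its call is no support for a rise. The call was lost with a minimum of 10 counts in every library and without replicate 1 of 12 h, where 1 target, Bid, remained. Phlda1, a relative of Phlda3, rose to 29.2 ± 1.61 from 19.0 ± 0.557 CPM (edgeR test, log2 fold change 0.62, SE 0.06, adjusted p = 5.7e-07). Bbc3, which encodes the death-promoting BH3 protein PUMA, was 1.27-fold higher at 12 h (edgeR test, log2 fold change 0.34, SE 0.06, adjusted p = 0.00052), and at 24 h its log2 fold change against time 0 was -0.00. That value was -0.23 with total counts and 0.21 with offsets for length and GC content (edgeR test, adjusted p = 0.027 and 0.0099).

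At 24 h against time 0, 9 of 40 other targets tested were called higher and 5 lower, with a median log2 fold change of 0.14. Their share called higher stood beside 12% of all genes, and their share called lower beside 16.8%. With total counts the split was 6 higher and 7 lower, beside 3706 of all genes called in either direction. Among the arrest genes, Cdkn1a, which encodes the cyclin-dependent kinase inhibitor p21 and is a classical p53 target, was at 32.7 ± 0.258 CPM at time 0, 31.7 ± 2.67 at 12 h and 101 ± 17.9 at 24 h. It rose 3.08-fold at 24 h (edgeR test, log2 fold change 1.62, SE 0.10, adjusted p = 6.6e-09), between 84.9 and 120 CPM in its libraries, while at 12 h it had a log2 fold change of -0.04. The stress kinase gene Plk3 rose 3.62-fold (edgeR test, log2 fold change 1.86, SE 0.06, adjusted p = 4.7e-11), and Gadd45a, a stress sensor of the cell cycle and DNA repair, rose 2.83-fold (edgeR test, log2 fold change 1.503, SE 0.11, adjusted p = 3.3e-08). Fbxw7, a ubiquitin ligase subunit that targets cyclin E and MYC, fell 3.86-fold (edgeR test, log2 fold change -1.95, SE 0.05, adjusted p = 6.9e-12). Exons of Cdkn1a and Gadd45a overlap annotated antisense transcripts, and those of Plk3 overlap Tctex1d4.

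Among 14 death genes tested at 24 h, Eda2r, a receptor of the TNF receptor family, rose (edgeR test, log2 fold change 0.79, SE 0.14, adjusted p = 0.00016) and Ei24 fell (edgeR test, log2 fold change -0.60, SE 0.05, adjusted p = 7.9e-08), the latter by a value that was -0.57 without replicate 3 of time 0 or replicate 1 of 24 h, short of 1.5-fold. With offsets for length and GC content Ei24 was at -0.47 and with upper-quartile factors at -0.57, and with total counts Eda2r was at 0.57, none of them called. Bax, which encodes the pore-forming effector of apoptosis, went from 45.4 ± 3.27 to 54.4 ± 1.94 CPM, 1.20-fold higher and not called (edgeR test, log2 fold change 0.26, SE 0.06, adjusted p = 0.0012). With total counts this difference was 0.04 (edgeR test, adjusted p = 0.6). Of 18 genes of repair, metabolism and secretion, 5 were called higher and 2 lower, beside the same 12% and 16.8% of all genes. Polk, a translesion polymerase, rose 2.04-fold (edgeR test, log2 fold change 1.03, SE 0.08, adjusted p = 5.4e-08), while another translesion polymerase, Polh, fell (edgeR test, log2 fold change -0.89, SE 0.09, adjusted p = 7.9e-07). The sestrins, stress proteins that restrain mTORC1, moved apart, with Sesn2 higher (edgeR test, log2 fold change 0.76, SE 0.10, adjusted p = 1.8e-05) and Sesn1 lower (edgeR test, log2 fold change -0.87, SE 0.06, adjusted p = 1.6e-08). Ddb2, a sensor of ultraviolet damage, was also called higher. With total counts Sesn2 was at 0.54 and Ddb2 at 0.53, and neither was called. Exons of Bax, Ei24 and Ddb2 overlap those of neighbouring genes. Dram1 and Sfn, called higher and lower from fewer than 50 counts on average, were named after their values were seen.

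**Figure D4:**
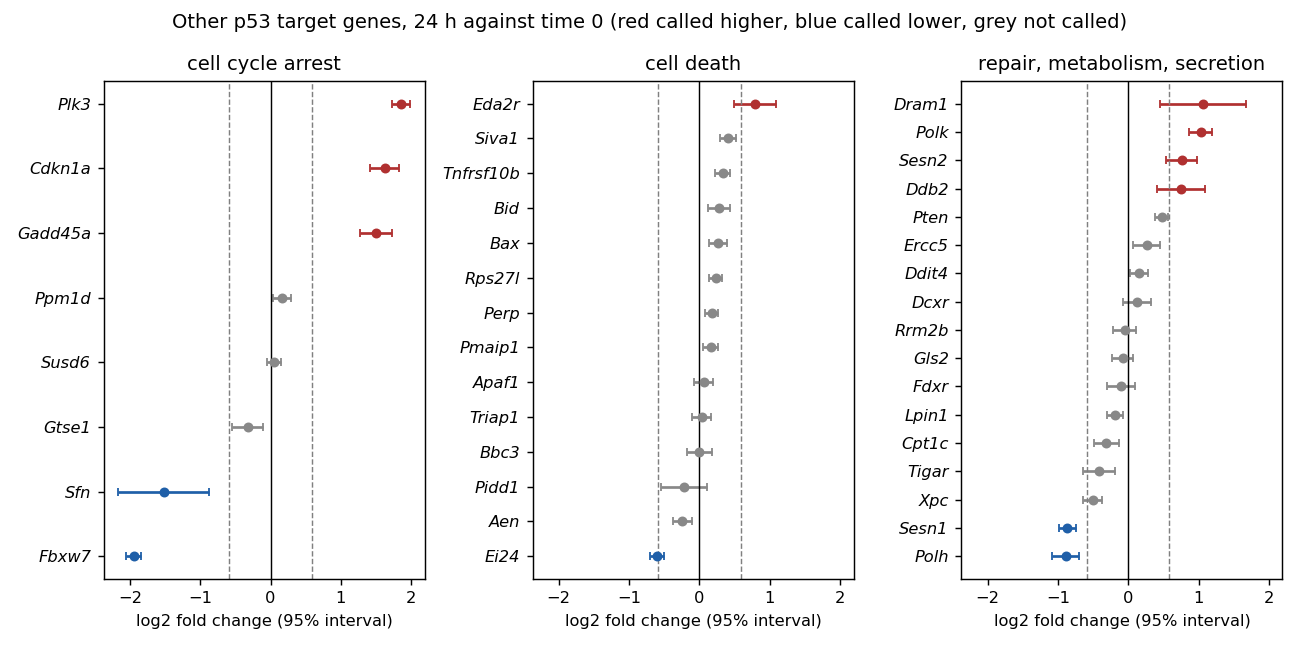
Log2 fold change at 24 h against time 0 (x axis) of other p53 targets tested, with 95% intervals from the edgeR fit, in 3 groups by function. Dashed lines mark 1.5-fold, red points were called higher and blue points lower. Called genes lie on both sides in each group, from Plk3 at 1.86 to Fbxw7 at -1.95.

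Of the 25 regulators and cofactors, 7 were called higher and 3 lower at 24 h, with a median log2 fold change of 0.29, beside 12% of all genes called higher and 16.8% called lower. With total counts the split was 4 higher and 5 lower, and with offsets for length and GC content it was 5 and 2. Of all genes, 3706 and 3032 were called in either direction under these settings. The genes of ribosomal and nucleolar proteins that bind MDM2 were among those higher, with Npm1 at 3293 ± 149 CPM at time 0 and 6184 ± 199 at 24 h (edgeR test, log2 fold change 0.91, SE 0.05, adjusted p = 2.0e-09), beside Rpl5 and Rpl11. The checkpoint kinase genes Chek1 (edgeR test, log2 fold change 0.84, SE 0.09, adjusted p = 1.5e-06) and Chek2 (edgeR test, log2 fold change 0.64, SE 0.10, adjusted p = 4.7e-05) rose, and Atm, the kinase upstream of Chek2, did not pass the test (edgeR test, log2 fold change -0.04, SE 0.07, adjusted p = 0.59), though with total counts it was at -0.26 (edgeR test, adjusted p = 0.0025). Cdkn2a, whose counts join the transcripts of p16INK4a and of the MDM2 inhibitor p19Arf, rose from 203 ± 2.46 to 319 ± 4.10 CPM (edgeR test, log2 fold change 0.65, SE 0.04, adjusted p = 4.6e-09). Cop1, a ubiquitin ligase of p53, was called higher as well. The acetyltransferase genes Ep300 (edgeR test, log2 fold change -1.23, SE 0.05, adjusted p = 2.2e-10) and Crebbp (edgeR test, log2 fold change -1.02, SE 0.05, adjusted p = 1.5e-09), whose proteins acetylate p53, and Usp10 (edgeR test, log2 fold change -0.99, SE 0.05, adjusted p = 2.0e-09), a deubiquitinase of p53, fell. Several of these calls were lost under other settings. With offsets for length and GC content Usp10 was at -0.58, Cop1 at 0.39 and Chek2 at 0.57, short of 1.5-fold, and Crebbp, still called, at -0.64. With total counts Cop1 was at 0.40, Chek2 at 0.42 and Cdkn2a at 0.43, also short of it. Exons of Rpl5, Ep300 and Usp10 overlap those of other annotated genes. Among 10 relatives, Tob1, an antiproliferative relative of Btg2, was the only gene called, and fell (edgeR test, log2 fold change -0.76, SE 0.04, adjusted p = 5.7e-09).

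Set directly against 12 h, 24 h gave 8 of 42 other targets higher and 5 lower, 6 of 25 regulators higher and 3 lower, and 1 of 11 relatives, Tob1, lower, beside 10.4% of all genes called higher and 15.3% called lower. Cdkn1a (edgeR test, log2 fold change 1.69, SE 0.10, adjusted p = 8.1e-09) and Gadd45a (edgeR test, log2 fold change 1.44, SE 0.12, adjusted p = 2.3e-07) rose between these times, and Fbxw7 fell (edgeR test, log2 fold change -1.92, SE 0.06, adjusted p = 4.5e-11). With total counts, the split of the other targets was 5 higher and 8 lower and that of the regulators 3 and 5. On that scale 3314 of all genes were called in either direction. At 24 h Cdkn1a was thus called higher while Mdm2 did not pass the test, and Zmat3 and Trp53inp1 were called lower.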

How the data were processed

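RNA-Seq of 9 MyC-CaP libraries was used, 3 each at 0, 12 and 24 h with ASPN, grouped by the times in the labels. The authors prepared TruSeq mRNA libraries, trimmed paired-end reads with Cutadapt, aligned them with STAR to GRCm38.p6 with a Gencode annotation and assigned them to genes with featureCounts. The deposited counts were not normalized. Whether strand was used in counting is not given in the sources used here. Columns of other samples numbered 0.

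The 8 genes and all lists were chosen with earlier results of these data known. In R 4.3.3, the 6 libraries of a comparison were tested with the quasi-likelihood test of edgeR 4.0.16 (filterByExpr, TMM, no block) and p-values were adjusted over all genes tested (Benjamini-Hochberg). The study itself used DESeq2. CPM used TMM factors over 9 libraries. Totals of 41881191 to 52993821 counts per library put 3 counts at 0.0566 to 0.0716 CPM, and intervals cover the fit only. No replicates were duplicates (chi-square per degree of freedom of 3.48 to 18.2 within a time). Lengths, GC content and overlaps came from GENCODE M21, where 15374 of 15384 genes matched. Pathway genes were named when called with a mean of at least 50 counts, up to 6 per list and direction with values for up to 4, besides Cdkn1a, Bax, Bbc3, Gadd45a, Sesn2, Atm, Chek1, Chek2, Cdkn2a, Trp63 and Trp73, which were always named. Of the list and marker genes, 2 are counted in the totals but are not reported here. Those most like Trp53 and Mdm2 were the 3 with the highest Pearson r.

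Alternatives were DESeq2 1.42.0, RLE, upper-quartile and total-count scaling, TMM without mitochondrial genes, no filter, a minimum of 10 counts per library, a joint fit of the 9 libraries, the replicate block, loess offsets for length and GC content (span 0.3) alone and with the block, the adjusted p alone, and leaving out each library. The steps were tested on simulated data for 24 h against time 0.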

Additional observations from a re-analysis of the deposited data

Results flagged for a closer look

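Of the 8 genes, 3 were called in the direct test of 24 h against 12 h, with an adjusted p of 0.05 or less and at least 1.5-fold, while 6 passed by the adjusted p alone. The shares of all genes tested were 10.4% called higher, 15.3% called lower and 71.3% by the adjusted p alone. The log2 fold change of 24 h against 12 h was 0.73 for Mdm4, -0.92 for Zmat3 and -1.46 for Trp53inp1 (quasi-likelihood test of edgeR, Benjamini-Hochberg adjusted p = 0.00011, 5.9e-08 and 6.4e-10). The libraries of the 2 times did not overlap for any of the 3. For Mdm4 the value was 0.53 without replicate 1 of 24 h and 0.51 with total counts, both short of 1.5-fold. With total counts 0 of the 8 genes were called higher and 3 lower. On that scale 3314 of all genes were called in either direction, against 2924 with TMM factors. All 3 genes showed no difference at 12 h against time 0 that passed the test.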

How the results depend on the processing

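The 12 alternatives, beside leaving out each of the 6 libraries of a comparison, were run on every comparison. The adjusted p alone moved every count, to 2, 7 and 6 of the 8 genes at 12 h against time 0, 24 h against time 0 and 24 h against 12 h, to 3, 21 and 22 regulators and to 9, 31 and 33 other targets, beside 10.3%, 70.9% and 71.3% of all genes. With at least 10 counts in every library, 1 other target was called at 12 h. With 1 library left out, 0 to 0, 3 to 4 and 2 to 4 of the 8 genes were called in the 3 comparisons, 0 to 0, 10 to 11 and 8 to 10 regulators, and 1 to 2, 14 to 15 and 11 to 14 other targets. In the same fits 148 to 198, 3248 to 3312 and 2871 to 3003 of all genes were called. Total counts turned Mdm2 to -0.19 at 24 h against time 0 and to -0.16 against 12 h, and Btg2 to -0.13 against 12 h. By the construction of that scaling all genes shift, their median to -0.24 against time 0 and -0.22 against 12 h. Trp53 at 24 h against 12 h turned to 0.010 with the length and GC correction and to 0.011 with this correction and the replicate block, and the cause was not tested.

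Other values also changed sign. At 12 h these were Phlda3 (-0.00060 with upper-quartile factors, -0.0063 with total counts), Atm (-0.0049, -0.011, -0.020 with the length and GC correction and -0.023 with the block as well) and Cdkn2a (2.9e-05 with at least 10 counts in every library). At 24 h against time 0, Bbc3 was 0.0090 with DESeq2, 0.0097 with RLE factors, 0.028 with upper-quartile factors, 0.21 with the length and GC correction and 0.21 with the block as well. Leaving out 1 library gave ranges across 0 at 12 h for Mdm2 (-0.030 to 0.00080), Mdm4 (-0.070 to 0.16), Phlda3 (-0.027 to 0.054), Atm (-0.068 to 0.068), Cdkn2a (-0.010 to 0.011) and Gadd45a (-0.050 to 0.20), at 24 h against time 0 for Atm (-0.092 to 0.036) and Bbc3 (-0.054 to 0.089), and at 24 h against 12 h for Atm (-0.087 to 0.047).

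Libraries with the same replicate number showed no shared deviation. Their deviations had mean correlations of -0.02, -0.06 and 0.02 in the 3 comparisons, and 0 of 3 pairs were above 0.1 in each. Whether the replicates were paired by design is not given in the labels. With the replicate number as a block, 0, 4 and 3 of the 8 genes were called, as without it, and 172, 3247 and 2926 of all genes. Of the differences of the 8 genes at 24 h against time 0, 133 values under the 12 alternatives and the 6 fits that left out a library kept their direction and side of the threshold, 6 lost the call, 4 gained one and 1 turned. The 8 genes had at least 300 counts in each library. Trp73 was too low to be tested. Trp63, tested at 24 h against 12 h alone on 0 to 13 counts in a library, had a log2 fold change of 0.92 (edgeR test, adjusted p = 0.33). Without replicate 1 of 12 h it was 2.66 (edgeR test, adjusted p = 0.047). In that fit Trp63 passed the filter on low counts through its 24 h libraries alone, so the value is no support for a rise.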
